A study of Mus musculus with 9 samples.

Results

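A set of 5 short stretches of the mouse genome collected far more bisulfite reads than the rest in both pools of primordial germ cells, and their methylation is described here. They were chosen by read depth, so depth is a description in what follows, while methylation levels were not part of the choice. In the mm9 build they lie at chr9:3000001-3039000 (39 kb, the chr9 proximal place), chr2:98502001-98508000 (6 kb), chr11:3027001-3096000 (69 kb), chr12:3109001-3111000 (2 kb) and chr9:35112001-35114000 (2 kb, the chr9 distal place). They hold 1369 of the 11380405 CpG sites listed in both pools outside the mitochondrial genome. The chr9 proximal place has 612 of these sites, chr2 78, chr11 644, chr12 16 and chr9 distal 19.

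The study compared primordial germ cells, the precursors of eggs and sperm, of female C57BL/6 mouse embryos at embryonic day 13.5. The wild-type (WT) group has 4 libraries of 1575 to 5251 cells and the Tet1-null group, which lacks the dioxygenase Tet1, has 5 libraries of 1400 to 4700 cells. Tet1-null libraries 1 and 2 carry the same cell number in the labels, and whether they share a cell pool is not stated. Each was sequenced over the whole genome after bisulfite conversion, which leaves methylated cytosine as C and turns unmethylated cytosine into T. Bisulfite was applied with a Sigma kit to 2 WT and 2 Tet1-null libraries and with a Zymo kit to 2 and 3, and sequencing runs 1, 2 and 3 held 1, 1 and 2 WT libraries and 0, 2 and 3 Tet1-null libraries. The deposited tables pool the libraries of a genotype, so each group is 1 pool with no replicate check, and kit, run and genotype cannot be told apart in them. All intervals are 95% intervals that cover counting error only, because with 1 pool per group the spread between libraries cannot be measured. In addition, reads from PCR without molecular identifiers cannot be taken as separate molecules. Reads were added up over sites, so a read that covers several CpG sites counts at each of them. The intervals and tests treat these counts as independent, so intervals can be too narrow and p-values too small.

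Mouse chromosomes have their centromere at one end. The heterochromatin beside it is built from long tandem arrays of the major satellite, a repeat with a unit of 234 bp, and the centromere itself from the minor satellite, with a unit of 120 bp. Genome builds hold only a few fragments of these arrays, and aligners place reads of the many copies onto those fragments. In somatic cells satellite DNA is generally heavily methylated, and primordial germ cells erase most of their DNA methylation before the stage studied. Tet1 oxidises 5-methylcytosine to 5-hydroxymethylcytosine, which bisulfite sequencing does not separate from 5-methylcytosine. The level of a place mapped from several copies is a mean over those copies, and a copy with T in place of C reads as unmethylated, so lower methylation and a larger share of such copies cannot be told apart.

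Only some of the 5 places sit where pericentromeric DNA is expected in the build. The first listed positions of the chromosomes were 3000031 on chr9, 3000034 on chr11, 3000068 on chr12 and 3000164 on chr2. The chr9 proximal place therefore begins with the listed sequence of its chromosome, and the chr11 and chr12 places lie close to it. The chr2 and chr9 distal places lie far inside their chromosomes. Gene and repeat annotation of mm9 and the sequence itself were not used here, so the places are described by position and by the spacing of their CpG sites.

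Across autosomal sites outside the places a site had on average 2.24 WT reads and 2.95 Tet1-null reads. In the chr2 place a site had 289 and 493 reads, which is 129 and 167 times the autosomal mean. In the chr9 distal place a site had 181 and 329 reads, and in the chr12 place 109 and 196.0. The chr9 proximal place had 41.3 and 90.3 reads per site, and the chr11 place 26.7 and 45.5, 11.9 and 15.5 times the autosomal mean. Depth was uneven within the small places. In the chr12 place the median site had 2 and 6 reads and the deepest 652 and 1087, and in the chr9 distal place the median was 42 and 98 and the highest 638 and 1098. In the chr11 place it was more even, with a median of 27 and 48 and a maximum of 79 and 124. Each place made up a larger share of the Tet1-null pool. The chr9 proximal place had 25299 of the 30353090 WT reads outside the mitochondrial genome and 55396 of the 46652998 Tet1-null reads. This is 1.42 times the WT share, and the other 4 places had 1.11 to 1.18 times the WT share. A larger Tet1-null share was not particular to the places. The mitochondrial genome, at sites in both pools, had 33263 of all 30386353 WT reads and 63075 of all 46716079 Tet1-null reads, also a larger share.

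Most borders of the places were sharp. The last 1 kb of the chr9 proximal place held 479 WT and 912 Tet1-null reads, and the next 1 kb held 3 and 5. The last 1 kb of the chr2 place held 7751 and 13513 reads and the next 1 and 4. The corresponding values were 862 and 1434 against 18 and 29 for chr12, and 2446 and 4365 against 7 and 10 for chr9 distal. The chr11 place was the exception. The 1 kb after it held 102 and 151 reads over 2 sites, 51 and 75.5 per site, which is more per site than the 38.9 and 64 in its own last 1 kb.

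The spacing of CpG sites, which the choice of places did not use, set the places apart. In the chr9 proximal place the most common distance between 100 and 400 bp was 234 bp, found for 211 pairs of sites. The median distance in that range had 3 pairs and the next most common had 90. At the next multiples, 468 bp and 702 bp, there were 148 and 99 pairs. The distance of 234 bp was also the most common in the chr9 distal place, with 3 pairs, and tied with another distance in the chr2 place, with 9 pairs. The chr2 place also had 7 pairs at 120 bp. In the chr11 place 234 bp had 8 pairs, equal to the median of 8, and the most common distance, 140 bp, had 17 pairs and tied with another. The 16 sites of the chr12 place gave 2 pairs at 176 bp and 1 at 234 bp, too few to read a period from pairs alone. By spacing, the name satellite-like therefore holds for the chr9 proximal place and for parts of the chr2 and chr9 distal places. For chr12 the pairs alone left it undecided, and its deep sites are compared with the repeat unit below. The chr11 place showed no 234 bp repeat and is called by its position.

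**Figure D1:**
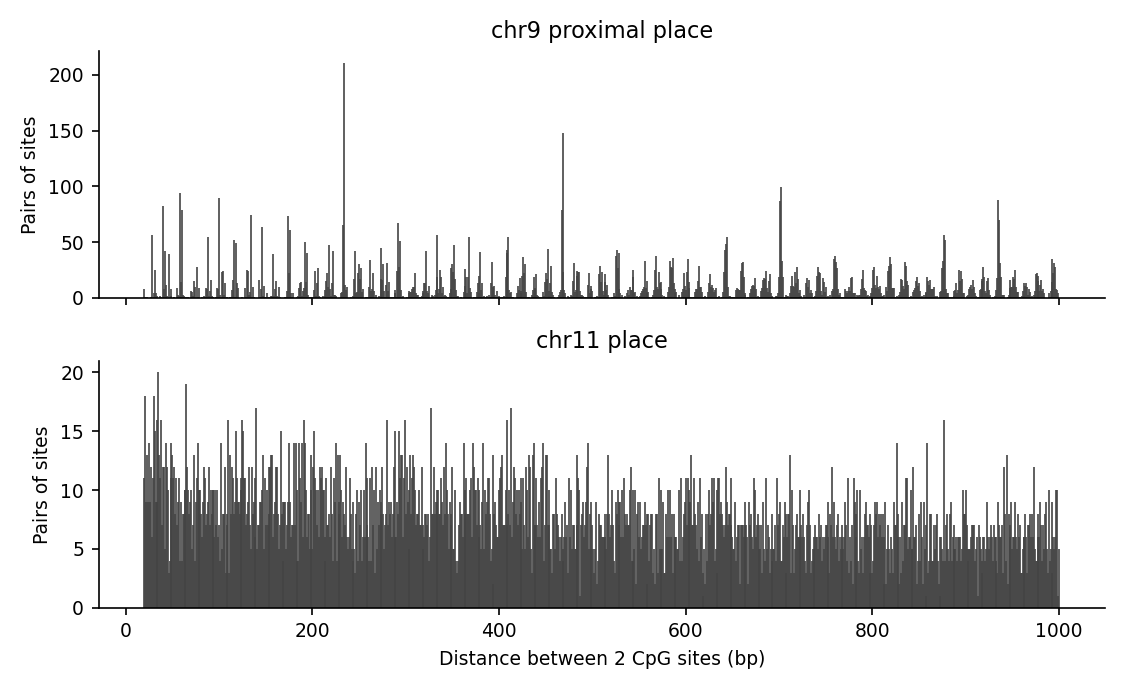
Number of pairs of CpG sites (y axis) at each distance in bp (x axis), upper panel chr9 proximal place, lower panel chr11 place, with different y scales. Sharp lines stand at 234, 468 and 702 bp in the chr9 proximal place, with 211, 148 and 99 pairs, and the chr11 place has no such line.

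The repeat unit could be resolved into its single CpG sites. In the chr9 proximal place the sites recurred as 6 CpGs per 234 bp, at 0, 12, 40, 58, 100 and 116 bp from the first and called CpG 1 to 6 in that order. Sites were assigned to 1 of these 6 CpGs where at least 4 sites of a unit were listed. That placed 363 of the 612 sites of the chr9 proximal place, all in the same orientation. It also placed 21 of 78 in the chr2 place, 17 of them in the reverse orientation, and 9 of 19 in the chr9 distal place, all reversed. No site of the chr11 or chr12 place was placed. When 3 sites of a unit were enough, 6 sites of chr11 and 3 of chr12 were placed. The 3 of chr12, positions 3109923, 3109911 and 3109883, stood at CpG 1, 2 and 3 in the reverse orientation. They held 871 of the 1747 WT reads of that place. Its pair at 234 bp joins position 3109883 to position 3110117. Part of the chr12 place thus has the spacing of this unit.

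Methylation in the places was well above the autosomal level in both pools. Over autosomal sites outside the places 3.31% of WT and 3.93% of Tet1-null reads were methylated, a difference of 0.621 percentage points (interval 0.611 to 0.631). All 5 places together had 10.4% (interval 10.2 to 10.7) in WT and 9.42% (9.27 to 9.58) in Tet1-null, which is 3.15 and 2.40 times the autosomal level. The difference, Tet1-null minus WT, was -1.01 points (interval -1.29 to -0.735), opposite in sign to that of the autosomes. In the mitochondrial genome, which is generally taken to be unmethylated, 1.66% and 1.29% of reads counted as methylated, a difference of -0.371 points (interval -0.537 to -0.211), so this background level also was lower for Tet1-null.

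In the chr9 proximal place 2801 of 25266 WT reads were methylated, 11.1% (interval 10.7 to 11.5), and 5613 of 55243 Tet1-null reads, 10.2% (9.91 to 10.4). The difference was -0.925 points (interval -1.39 to -0.467). The chr2 place had 9.61% (interval 9.24 to 10.0) in WT and 8.56% (8.29 to 8.85) in Tet1-null, a difference of -1.05 points (interval -1.53 to -0.578). Both intervals lay below 0, with the counts of all sites taken as independent. With the mitochondrial level subtracted from each pool the differences were -0.555 and -0.679 points.

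The chr11 place, 11.4% in WT (interval 10.9 to 11.9) and 9.72% in Tet1-null (9.39 to 10.1), had the largest difference of the 5, -1.66 points (interval -2.24 to -1.08), and -1.29 points with the mitochondrial level subtracted. For the 2 smallest places the interval of the difference included 0. The chr12 place had 8.87% (interval 7.63 to 10.3) and 8.64% (7.71 to 9.68), a difference of -0.231 points (interval -1.93 to 1.39). The chr9 distal place had 7.09% (interval 6.28 to 7.99) and 7.19% (6.58 to 7.86), a difference of 0.101 points (interval -0.994 to 1.15).

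Set against the autosomal difference, the chr9 proximal, chr2 and chr11 places were lower by 1.55 points (interval -2.01 to -1.09), 1.67 points (-2.15 to -1.20) and 2.28 points (-2.87 to -1.70). For chr12 and chr9 distal the same value was -0.852 (interval -2.56 to 0.767) and -0.520 points (-1.62 to 0.530). The places may draw reads from the same repeat family and are not independent of each other.

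**Figure D2:**
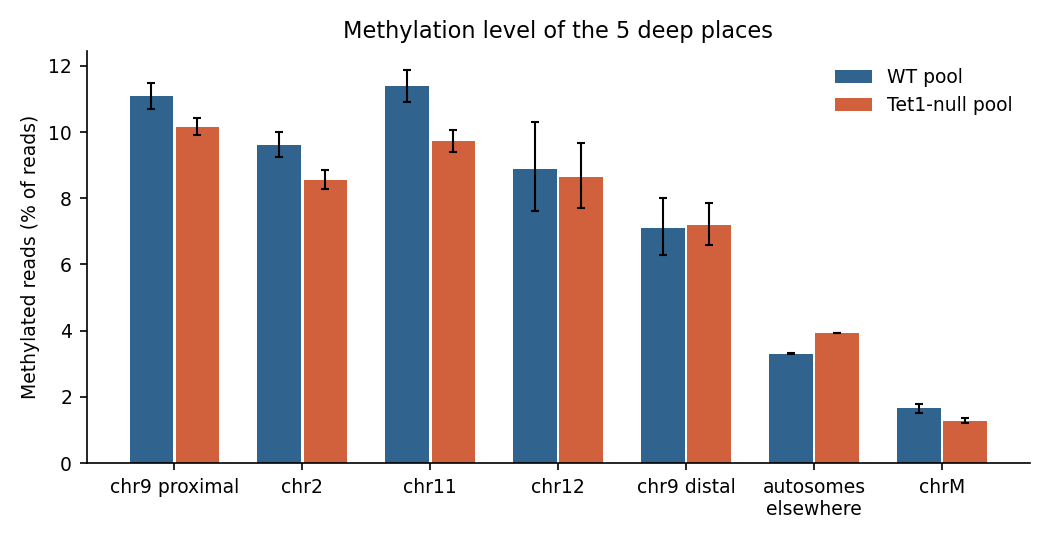
Methylated reads as a percentage of all reads (y axis) in each place, the other autosomal sites and the mitochondrial genome (chrM), blue WT pool, orange Tet1-null pool, bars from 0 with 95% Wilson intervals. The 5 places stand between 7.09% and 11.4%, above the autosomes at 3.31% and 3.93%, and chr9 proximal, chr2 and chr11 are lower in the Tet1-null pool.

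The DNA beside the places was shallow, with few reads to set a level. In the 10 kb after the chr9 proximal place 1 of 63 WT and 1 of 72 Tet1-null reads were methylated. The 10 kb on both sides of the chr9 distal place had 1 of 59 and 2 of 69 methylated reads in WT and 0 of 87 and 2 of 98 in Tet1-null. Beside the chr9 proximal place the level was below that of the place in both pools, with intervals of 0.281% to 8.46% in WT and 0.246% to 7.46% in Tet1-null. For chr9 distal the intervals of both sides in WT and of the side after it in Tet1-null overlapped that of the place. The 10 kb before and after the chr11 place had 7.11% and 9.44% in WT and 6.18% and 10.2% in Tet1-null. After the place the intervals, 7.31% to 12.1% in WT and 8.39% to 12.5% in Tet1-null, held the 11.4% and 9.72% within it. Before the place the intervals, 4.55% to 10.96% in WT and 4.41% to 8.59% in Tet1-null, lay below the level of the place in both pools. The WT interval slightly overlapped that of the place, 10.91% to 11.86%. Before the chr12 place the level was 4.59% (5 of 109 reads) in WT and 15.3% (21 of 137) in Tet1-null, a difference of 10.7 points (interval 3.10 to 18.2) while the place itself had -0.231 points. Beside the chr2 place the sides had 0 of 41 and 2 of 20 methylated reads in WT and 2 of 56 and 0 of 31 in Tet1-null.

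Within the 234 bp unit, methylation differed from CpG to CpG. In the chr9 proximal place CpG 1 had 17.1% in WT and 15.3% in Tet1-null, and CpG 4 16.1% and 15.2%. CpG 2 had 13.4% and 13.2%, CpG 6 had 11.0% and 9.22%, and CpG 3 had 7.43% and 7.11%. CpG 5 had 2.41% (interval 1.94 to 3.00) in WT and 2.92% (2.55 to 3.34) in Tet1-null, below the autosomal level in both pools. Single sites showed the same separation. Over the 37 sites at CpG 5 with at least 20 reads in both pools the level ran from 0 to 7.14% in WT, with a median of 2.00%, and from 0 to 11.8% in Tet1-null, with a median of 2.67%. Over the 44 sites at CpG 1 it ran from 6.03% to 39.3% in WT, with a median of 16.8%, and from 7.27% to 25.8% in Tet1-null, with a median of 16.2%. The ranges of CpG 1 and CpG 5 overlapped only between 6.03% and 7.14% in WT and between 7.27% and 11.8% in Tet1-null. They overlapped more when 3 sites of a unit were enough. CpG 1 then began at 2.94% in WT and 7.14% in Tet1-null, and CpG 5 reached 19.4% and 11.8%. The medians were 16.4% and 14.3% at CpG 1, and 2.33% and 2.82% at CpG 5.

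CpG 5 was also the lowest in the chr2 and chr9 distal places. In the chr2 place CpG 5 had 3.21% in WT and 2.79% in Tet1-null, CpG 3 had 4.52% and 5.65%, and CpG 4 had 11.4% and 10.7%. In the chr9 distal place CpG 5, a single site, had 1.10% (7 of 638 reads) and 2.00% (22 of 1098), CpG 3 had 4.11% and 5.56%, and CpG 4, also a single site, had 16.3% (23 of 141) and 13.5% (36 of 267). In all 3 places CpG 5 was the lowest in both pools, and CpG 3 came next in WT. In the chr2 place CpG 5 and CpG 3 had 4 assigned sites each. When 3 sites of a unit were enough, their WT levels there were close. CpG 5 had 4.48% (interval 3.87 to 5.19) and CpG 3 4.90% (4.06 to 5.89), with 4.11% and 5.81% in Tet1-null.

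Between the pools, 2 of the 6 CpGs of the chr9 proximal place had a difference with an interval that excluded 0. CpG 1 differed by -1.88 points (interval -3.28 to -0.510) and CpG 6 by -1.80 points (-3.32 to -0.355). At CpG 2, 3 and 4 the differences were -0.154, -0.313 and -0.926 points, with intervals that include 0. CpG 5 had a difference of 0.501 points (interval -0.190 to 1.13). In the chr2 place only CpG 6 had an interval that excluded 0, at -2.16 points (interval -3.91 to -0.503), and in the chr9 distal place none did.

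**Figure D3:**
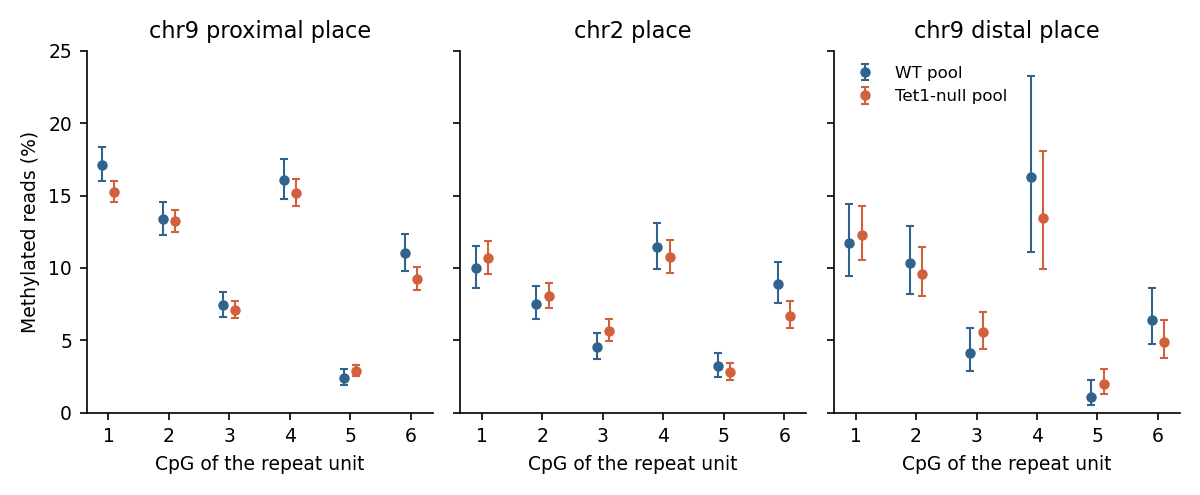
Methylated reads as a percentage (y axis) at each of the 6 CpGs of the 234 bp unit (x axis, numbered in the orientation of the chr9 proximal place), with 95% Wilson intervals, blue WT pool, orange Tet1-null pool, 1 panel per place. CpG 5 is the lowest in every panel, from 1.10% to 3.21%, and CpG 1 and 4 reach 9.97% to 17.1%.

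Sites with no assigned CpG had the larger difference between the pools in both larger satellite-like places. The difference of these differences was not tested. Such sites can still belong to the unit, where fewer than 4 of its sites were listed or the best placements disagreed. When 3 sites were enough, 167 sites of chr9 proximal and 46 of chr2 had no assigned CpG. Their differences were -2.29 points (interval -3.45 to -1.19) and -2.25 points (-3.12 to -1.39). In the chr9 proximal place sites with an assigned CpG had 11.3% in WT and 10.6% in Tet1-null, a difference of -0.686 points (interval -1.23 to -0.152), and the 249 others 10.3% and 8.66%, -1.65 points (interval -2.56 to -0.771). In the chr2 place the 21 assigned sites had 7.40% and 7.35%, a difference of -0.0474 points (interval -0.678 to 0.569). The other 57 had 11.6% and 9.72%, a difference of -1.86 points (interval -2.57 to -1.16). A grouping made after the values were seen placed 24 of these 57 sites by a partner at 120 bp, within 2 bp. They had 15.3% in WT and 12.9% in Tet1-null, a difference of -2.42 points (interval -3.54 to -1.32). The 234 bp unit itself has a gap of 118 bp, from CpG 6 to the next CpG 1, so the grouping does not hold 120 bp spacing alone. Positions 98506748, 98506982 and 98507482 had such a partner only at a site assigned to CpG 1 or 2. They differed by -4.78, -4.81 and 1.75 points, and the level of the group without them was not computed. The interval of the 24 sites overlapped that of all 57, so their -2.42 points is not read as a larger fall than -1.86 points. The remaining 33 had 7.42% and 6.53%. Of the 65 chr2 sites with at least 20 reads in both pools, 6 in WT and 5 in Tet1-null were above 20%. The 24 sites with the 120 bp partner held 5 of the 6 and all 5. The highest was position 98506660, with 87 of 206 WT reads methylated (42.2%) and 112 of 293 Tet1-null reads (38.2%). Position 98502951 had 37.8% and 35.3%, and position 98506419 had 35.8% and 35.1%. These sites were named after their values were seen.

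The genome was tested in 278114 windows of 1 kb by Fisher's exact test, adjusted after Benjamini and Hochberg, which compares these 2 pools of reads and not the genotypes. At an adjusted p under 0.05 with 20 points or more between the pools, 0.1% of all tested windows were higher in the Tet1-null pool and 0.0547% lower. Of the 111 tested windows in the places, 0 were called. At an unadjusted p under 0.05 by Fisher's exact test, 2 of the 111 were higher and 20 lower, against 2.59% higher and 1.61% lower over all tested windows. With no minimum difference the genome had 0.103% higher and 0.0608% lower, and the places had 0 higher and 3 lower, 2 in chr11 and 1 in chr2. A quasi-binomial F test, which takes the spread among the sites of a window into account, kept 1 of these 3, the chr11 window from 3050001, and by that test the genome had 0.0151% higher and 0.0119% lower. At an unadjusted p under 0.05 the quasi-binomial test had 0 higher and 7 lower of the 111. Over all 278114 windows it had 13169 higher and 7989 lower. By sign alone 84 of the 111 windows were lower and 27 higher for Tet1-null, with a median difference of -1.28 points, while over all tested windows 84654 were lower, 108163 were higher and 85297 equal, with a median of 0. Lower windows numbered 31 of 38 in chr9 proximal, 5 of 6 in chr2 and 46 of 63 in chr11, and 1 of 2 in both chr12 and chr9 distal. Calls at small differences depend on depth, which was far higher here than in the median window of 27 WT and 33 Tet1-null reads.

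For that reason the places were set beside the 18 other tested windows with over 20 times the median reads. Of these, 61.1% were called lower with no minimum difference, their median levels were 17.4% in WT and 7.81% in Tet1-null, and their median difference was -8.01 points. The places hold 26 windows of that depth, of which 2 were called lower, with a median difference of -0.913 points. The 18 windows, on 8 chromosomes, had 547 to 5025 WT reads with a median of 855.5, and the 26 had 585 to 7751 with a median of 1180. No test of the 2 sets was made.

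Along the chr9 proximal place the 38 tested windows had 3.13% to 24.5% in WT, with a median of 11.3%, and 5.08% to 21.1% in Tet1-null, with a median of 9.94%. The highest WT window, from 3014001, had 13 of 53 WT reads methylated (24.5%) and 19 of 138 Tet1-null reads (13.8%), which also was the largest fall, -10.8 points (interval -24.6 to 0.964). The lowest, from 3008001, had 2 of 64 (3.13%) and 29 of 223 (13.0%), the largest rise, 9.88 points (interval 1.41 to 15.4). Both had among the fewest reads of the place, and with Fisher's exact test their adjusted p-values were 1 and 0.937. The extremes of this place thus lay in shallow windows.

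In the chr11 place the level was highest in CpG-dense windows but not confined to them. Without the 2 windows of 20 or more sites it was 8.20% in WT and 6.50% in Tet1-null. Autosomal sites outside the places had 3.31% and 3.93%. Over the 63 tested windows of chr11 the median was 8.03% in WT and 5.61% in Tet1-null, below the level of the place as a whole. Windows with 1 to 9 CpG sites, 43 in number, had 8.12% and 6.22%, and the 24 with 10 to 19 sites had 8.28% and 6.79%. The 2 windows with 20 or more sites had 31.5% and 29.0%. All 3 classes were lower for Tet1-null, with differences of -1.91 (interval -2.66 to -1.17), -1.49 (-2.28 to -0.725) and -2.51 points (-4.85 to -0.194).

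These 2 CpG-dense windows behaved differently. The window from 3093001, with 60 sites, had the highest level of the tested windows, 592 of 1744 WT reads (33.9%) and 1091 of 3116 Tet1-null reads (35.0%), a difference of 1.07 points (interval -1.73 to 3.83). Its 52 sites with at least 20 reads in both pools ran from 0 to 81.5% in WT and from 0 to 83.1% in Tet1-null, with 29 lower and 22 higher in Tet1-null. Position 3093299 had 22 of 27 and 54 of 65 methylated reads, and position 3093294, 5 bp away, had 0 of 16 and 0 of 33, a pair named after the values were seen. With 16 WT reads, position 3093294 was below the minimum of 20 and is not among the 52 sites. Of the 52 sites, 2 were under 3% and 4 over 50% in both pools.

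The window from 3050001, with 32 sites, had 147 of 602 WT reads methylated (24.4%) and 127 of 1085 Tet1-null reads (11.7%), a difference of -12.7 points (interval -16.7 to -8.86). Its adjusted p was 6.09e-07 by Fisher's exact test and 0.0442 by the quasi-binomial test. Of its sites 22 were lower and 4 higher for Tet1-null, and 11 of the 13 with at least 20 reads in both were lower. It was the largest fall of the place. The next window, from 3051001, had too few sites to be tested, with 26 of 91 reads (28.6%) in WT and 52 of 143 (36.4%) in Tet1-null, the largest rise, 7.79 points (interval -4.67 to 19.4). The other called window of chr11, from 3034001, had 37 of 342 (10.8%) and 32 of 776 (4.12%), with an adjusted p of 0.0324 by Fisher's exact test and 0.586 by the quasi-binomial test. The lowest WT window, from 3068001, had 0 of 39 reads, which allows a level of up to 8.97% (Wilson interval), and 3 of 77 in Tet1-null (3.90%).

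**Figure D4:**
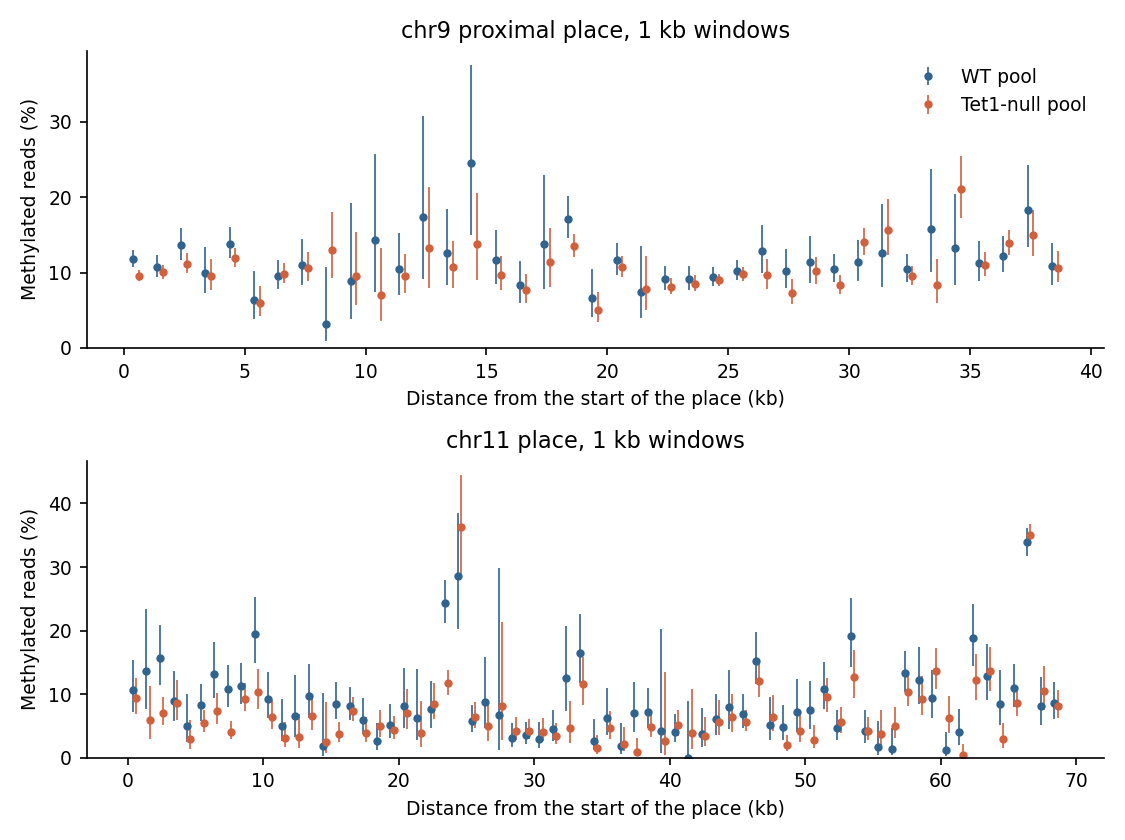
Methylated reads as a percentage (y axis) in 1 kb windows along the chr9 proximal and chr11 places (x axis, distance from the start of the place in kb), with 95% Wilson intervals, blue WT pool, orange Tet1-null pool. The chr9 proximal windows lie between 3.13% and 24.5%, and in chr11 the windows at 23 and 66 kb stand out, the first at 24.4% and 11.7% and the second at 33.9% and 35.0%.

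In the chr2 place the levels of the 6 windows ran from 7.08% to 12.5% in WT and from 6.97% to 10.9% in Tet1-null. The window from 98506001 had 615 of 5100 WT reads methylated (12.1%) and 881 of 8935 Tet1-null reads (9.86%), with an adjusted p of 0.0419 by Fisher's exact test and 0.895 by the quasi-binomial test. The largest fall was in the window from 98503001, 9.49% and 6.97%, a difference of -2.52 points (interval -4.52 to -0.646). With sites at least 100 bp apart alone, that window had the opposite sign, 0.721 points. The deepest window, from 98507001, had 7.08% of 7751 reads and 7.07% of 13513, a difference of -0.0157 points (interval -0.742 to 0.692). This window holds the 3 deepest sites of the place, at CpG 4, 3 and 2 of the 234 bp unit.

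The 2 windows of the chr12 place had 9.38% and 8.35% in WT and 10.5% and 6.42% in Tet1-null. The differences were 1.14 points (interval -1.37 to 3.47) and -1.94 points (interval -4.28 to 0.233), neither beyond counting error. A single site, position 3110026, carried 652 of the 862 WT reads of the second window, with 50 methylated (7.67%) against 55 of 1087 in Tet1-null (5.06%). Of the chr9 distal windows the first had 120 of 996 WT reads methylated and 224 of 1880 Tet1-null reads (11.9%), and the second 5.07% and 5.15%. The step from the first window to the second was thus larger than the differences between the pools, -0.133 and 0.0851 points. Its deepest sites were at CpG 5 and 6 of the unit, positions 35113019 (1.10% and 2.00%) and 35113003 (6.43% and 4.92%).

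Single sites were tested where both pools had at least 10 reads, which held for 7751 sites of the genome and 987 members. Of all tested sites 0.0387% were called lower by at least 20 points and 0.0516% lower with no minimum, and 0 were higher. Among the members 0 were called by Fisher's exact test after adjustment. At an unadjusted p under 0.05, 10 members (1.01%) were higher and 46 (4.66%) lower, close to the 0.839% and 5.42% over all tested sites. With at least 20 reads required, 803 members of 2521 sites were tested, and 2 members (0.249%) were called lower, against 1.43% of all these sites. Position 3050815 on chr11 had 11 of 20 WT reads methylated (55.0%) and 3 of 35 Tet1-null reads (8.57%), with an adjusted p of 0.0364 by Fisher's exact test in that setting and 0.109 with the minimum of 10 reads. Position 3028552 on chr9, a CpG 1 of the unit, had 11 of 28 (39.3%) and 8 of 85 (9.41%), with adjusted p-values of 0.0427 and 0.122 by Fisher's exact test.

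Other named sites were not called at either minimum. On chr11, position 3093468 had 7 of 24 WT reads methylated (29.2%) and 25 of 43 Tet1-null reads (58.1%), the largest rise of that place. On chr9, position 3002212 had 4 of 83 (4.82%) and 31 of 166 (18.7%), the largest rise in the proximal place. On chr2, position 98504195 had 11 of 46 (23.9%) and 5 of 52 (9.62%), the largest fall there. The deepest sites had the following levels. Position 98507306 on chr2 had 9.42% of 807 reads and 9.29% of 1324, and position 3023537 on chr9 9.01% of 333 and 9.30% of 656. The deepest site of chr11, position 3055811, had 0 of 79 and 1 of 108 reads methylated.

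The places also differed in how their site levels were distributed. With at least 20 reads in both pools, the median site of the chr9 proximal place had 10.4% in WT and 9.87% in Tet1-null over 280 sites, and that of chr2 9.13% and 7.89% over 65 sites. The median of chr11 was lower, 6.42% and 5.69% over 442 sites, of which 89 in WT and 63 in Tet1-null had no methylated read. Only chr11 had sites above 50%, 10 in WT and 7 in Tet1-null. The highest level was 39.3% and 30.7% in the chr9 proximal place, 42.2% and 38.2% in chr2, 12.8% and 11.8% in chr12, and in chr9 distal 16.3% in WT. Sites high in one pool tended to be high in the other. Pearson's r was 0.659 over the 280 sites of chr9 proximal, 0.927 over the 65 of chr2 and 0.847 over the 442 of chr11, given as a description across sites that share libraries and neighbouring sequence.

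**Figure D5:**
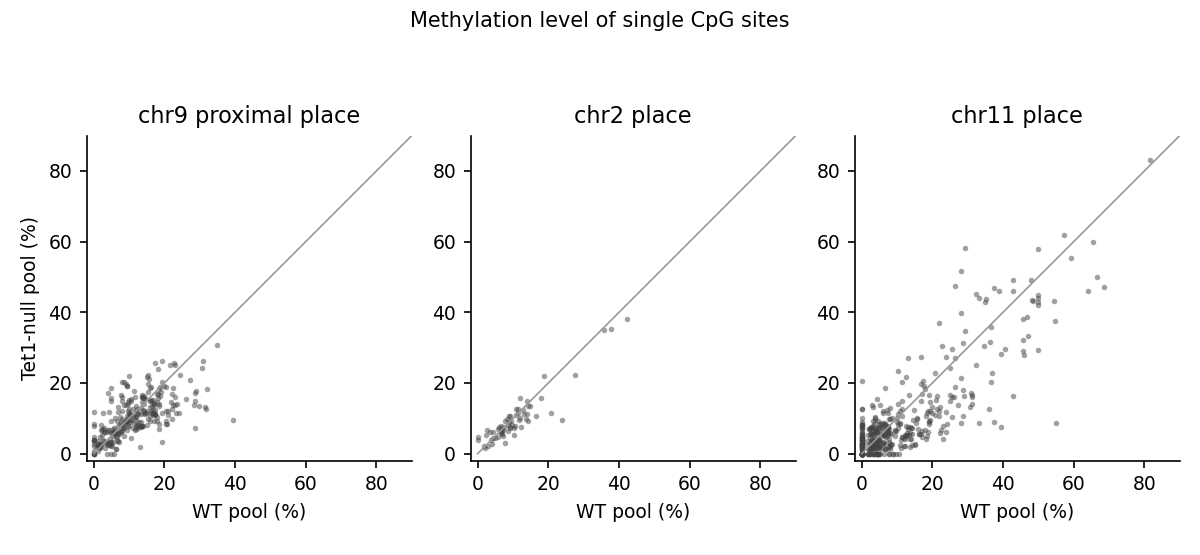
Methylation level of single CpG sites with at least 20 reads in both pools, WT (x axis, %) against Tet1-null (y axis, %), for the chr9 proximal, chr2 and chr11 places, with the line of equal levels. Each point is 1 site (280, 65 and 442 sites), and levels above 50% occur only in chr11.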

How the data were processed

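The members and lists were chosen with earlier results of these data known. The authors deposited 1 pooled table per genotype, which lists for each CpG a methylation level (a fraction) and a count of reads. Level times count gave whole methylated reads at 100% of sites. WT reads numbered 30386353 in all and Tet1-null reads 46716079. Build mm9 and bedtools are named per the submitters' processing notes. The handling of reads with several matches, like the aligner, was not given in the sources used here, and nor was that of duplicates. The deposited read filter removes a read if more than 1.2% of its bases are C without a following G. Positions are counted from 1, as the deposited start plus 1.

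For sites in both pools, methylated and all reads were added up (Python 3.11.15, numpy 2.4.6, pandas 2.3.3, scipy 1.17.1, numba 0.67.0, matplotlib 3.10.9). Levels carry Wilson and differences Newcombe 95% intervals. Windows of 1 kb entered the test with at least 5 positions and 20 reads in each pool, single sites with at least 10 reads. Both went through two-sided Fisher's exact tests, Benjamini-Hochberg adjusted over the genome. A call needed 20 points or more at an adjusted p under 0.05. The scripts were tested on simulated data. Named were, per place, the windows with the highest and lowest WT level and the largest rise and fall, the 3 deepest sites, and the sites with the largest rise and fall among those with at least 20 reads in both pools. Alternatives changed read minimums, weighting, site spacing, windows, tests and call rules. Per-library values were not analysed here.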

Additional observations from a re-analysis of the deposited data

How the results depend on the processing

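No paired analysis was possible because the tables pool the libraries of a genotype, and leaving out libraries was not run for the same reason. The differences of chr9 proximal, chr2 and chr11 stayed below 0 under every alternative run. Leaving out each 1 kb window in turn gave -1.03 to -0.748 points for chr9 proximal, -1.56 to -0.728 for chr2 (lowest without the window from 98507001), -2.11 to -1.26 for chr11, -1.94 to 1.14 for chr12 (lowest without the window from 3109001) and -0.133 to 0.0851 for chr9 distal. With sites at least 100 bp apart chr2 had -1.98 points, and its window from 98503001 had 0.721 points, the opposite sign. With each site weighted equally chr11 had -2.39 points. The cause was not tested. Without its CpG-dense windows, an alternative added after seeing the data, chr11 had -1.70 points. Called windows numbered 1 with a minimum of 10 points, 3 with no minimum and 1 by the quasi-binomial test with no minimum, also added later. Called sites numbered 2 with at least 20 reads. Over distances of 20 to 1000 bp the most common spacing was 88 bp in chr2 and 35 bp in chr11. With 3 sites of a unit needed, added later, the fifth CpG of chr2 had 4.48% and 4.11%. Over all alternatives, 47 values of the differences of places moved by no more than the counting interval and 4 moved further, and 80 and 4 did so for the named windows. Depth limits the chr12 and chr9 distal places, whose sign changed between alternatives, and single sites.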
